A study of Mus musculus with 6 samples.

Results

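ATP-dependent chromatin remodellers are enzymes that slide, eject or exchange nucleosomes, together with the subunits that steer them. The genes described here were 39 subunits of the SWI/SNF, ISWI, CHD and INO80 families and their SNF2-like relatives, matched by symbol in the deposited count table of 27098 genes. All 39 were present, and all 39 were among the 17475 genes with enough counts to be tested. They were chosen by family name with their PRP and control counts already in view, so the values of that comparison are given as a description, and no test of them is used as support. Of the 39, 18 encode an ATPase, the motor of a complex, and 21 encode a partner subunit.

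The ovaries came from mice 3 days after birth, an age at which most oocytes lie in primordial follicles, and were cultured in DMEM/F12 medium with antibiotics. The control group had 3 libraries from medium alone, and the PRP group had 3 libraries from medium with 2% platelet-rich plasma (PRP) for 2 h. PRP is a plasma fraction rich in platelets and their growth factors, described in the series text as human and thrombin-activated. Strain and genotype are not stated in the sources used here, no control with thrombin or other plasma is named, and the labels do not say whether replicates were separate animals, so p-values measure only the spread between these libraries, which may be technical.

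In a remodelling complex the ATPase uses the energy of ATP hydrolysis to break contacts between histones and DNA, and the partner subunits read histone marks or bind transcription factors. SWI/SNF complexes open chromatin at enhancers and promoters and exist as BAF, PBAF and non-canonical BAF forms, which share a core and differ in a few subunits. ISWI complexes space nucleosomes, CHD enzymes act in gene activation and in the repressive NuRD complex, and INO80 family enzymes exchange the histone variant H2A.Z. In the mouse oocyte, Smarca4 is known as a maternal gene whose product the embryo needs to activate its genome.

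Library totals ran from 35568000 to 36568367 counts, and single member genes held between 840 and 22129 counts in a library. Oocyte and granulosa markers were detected in every library, at summed levels of 1775 to 2803 and 1018 to 1198 CPM (counts scaled to library size), respectively. Control 3 stood apart in its erythroid genes, at 1532 CPM against 108 to 225 CPM in the other 5 libraries, and in its interferon-stimulated genes, at 274 CPM against 135 to 189 CPM. In whole ovaries, fewer cells of a type and less RNA per cell cannot be told apart.

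Promoter windows of 32 of the 39 genes were available from RefSeq (GRCm38.p6), as 37 windows of 250 bases before to 50 bases after a transcript start. They were rich in CpG dinucleotides, with a median of 29 per window, against 18 in windows of all tested genes and 7 in all 32851 windows. The GC box GGGCGG, read on both strands, lay in 28 of the 32 genes and in 83.8% of their windows, against 55.8% of the windows of tested genes and 35.7% of all windows. The 150 bases before the start are shown for 4 genes: Pbrm1 and Smarcb1, SWI/SNF subunits with the lowest and the highest log2 fold change in the comparison below, and Ep400 and Srcap, INO80 family ATPases whose PRP libraries all lay below the control libraries. The start used for Ep400 lies inside its annotated span. Capitals mark the GC box or its reverse complement CCGCCC.
Pbrm1 (chr14:31018988-31019137, plus strand): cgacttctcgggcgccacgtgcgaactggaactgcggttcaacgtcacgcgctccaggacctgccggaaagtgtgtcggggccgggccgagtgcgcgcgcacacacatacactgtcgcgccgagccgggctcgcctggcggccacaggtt
Ep400 (chr5:110770718-110770867, minus strand): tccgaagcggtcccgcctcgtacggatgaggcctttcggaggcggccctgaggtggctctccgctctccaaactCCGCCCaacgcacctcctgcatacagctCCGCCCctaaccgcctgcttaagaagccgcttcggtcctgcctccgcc
Srcap (chr7:127511833-127511982, plus strand): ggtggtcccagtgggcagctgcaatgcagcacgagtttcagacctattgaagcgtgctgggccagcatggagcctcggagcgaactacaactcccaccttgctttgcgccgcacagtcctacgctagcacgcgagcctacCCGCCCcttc
Smarcb1 (chr10:75921615-75921764, minus strand): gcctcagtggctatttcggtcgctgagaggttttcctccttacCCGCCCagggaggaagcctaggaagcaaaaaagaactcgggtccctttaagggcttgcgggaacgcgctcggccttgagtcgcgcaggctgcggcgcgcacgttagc
The GC box stood in the bases shown for Ep400 and Srcap, with lower values in PRP, and for Smarcb1, with higher values. The bases shown for Pbrm1 hold none, and its full window holds one outside them.

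The other motifs searched, also on both strands, differed in how common they were. The letters TGACG, part of the site of CREB and related factors, lay in 37.8% of the members' windows, 27.4% of the windows of tested genes and 20.8% of all windows. The ETS letters CCGGAAG lay in 13.5%, 14.4% and 8.86% in the same order, and the EGR1 letters GCGGGGGCG, which can overlap a GC box, in 5.41%, 4.82% and 2.91%. Again in that order, the CCAAT box (CCAAT) lay in 29.7%, 37.2% and 37.4%. The TATA letters TATAAA lay in 5.41%, 8.36% and 13.6%, and the E-box CACGTG in 5.41%, 9.24% and 7.15%. For each of these 2 motifs the members' share is 2 of 37 windows. The core letters GCATGC of NRF1 lay in 10.8%, 9.17% and 7.93%, and the core letters AAGATGG of YY1 in 8.11%, 6.45% and 6.34%. The longer motifs of NRF1, YY1 and the serum response factor lay in 0%, 5.41% and 0% of the members' windows. Their shares were 1.70%, 1.12% and 0.0231% in the windows of tested genes and 0.971%, 0.633% and 0.0639% in all windows. The members' YY1 matches, which contain the core letters, were in Bptf and Smarcd1. These are matches of letters and were not tested as binding sites.

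The ovary expressed remodellers of every family. Levels of different genes were compared as CPM per kilobase (kb) of the longest annotated transcript, averaged over the 6 libraries with the SD between them. They ran from 6.19 to 85.6, a 13.8-fold range with a median of 26.8, and 37 of the 39 genes lay above the median of all tested genes. In the order of levels, 29 of 38 neighbouring pairs differed by no more than their combined SD. The order rests on the length assigned to each gene. With the median annotated transcript length in place of the longest, Chd4 stood at 87.7, below Chd2 at 203.8, Atrx at 191.1, Smarca2 at 158.9 and Smarcad1 at 103.8, and Chd7 stood at 21.7, above Ino80 at 14.8, Chd9 at 16.2, Smarcd3 at 18.1 and Arid1b at 18.9. Of the partner subunits, Smarcd1 at 138.9 and Smarcc1 at 91.1 then lay above Phf10 at 83.6, and Baz1a at 83.4 and Actl6a at 81.9 above Smarcb1 at 66.6. Some of these median lengths are short, at 0.75 kb for Chd2, 0.83 for Smarca2, 0.67 for Smarcad1, 0.71 for Smarcd1 and 0.59 for Baz1a. The longest transcripts of these genes are 9.09, 5.92, 5.17, 3.31 and 6.19 kb, in that order. The levels that follow use the longest transcript.

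**Figure D1:**
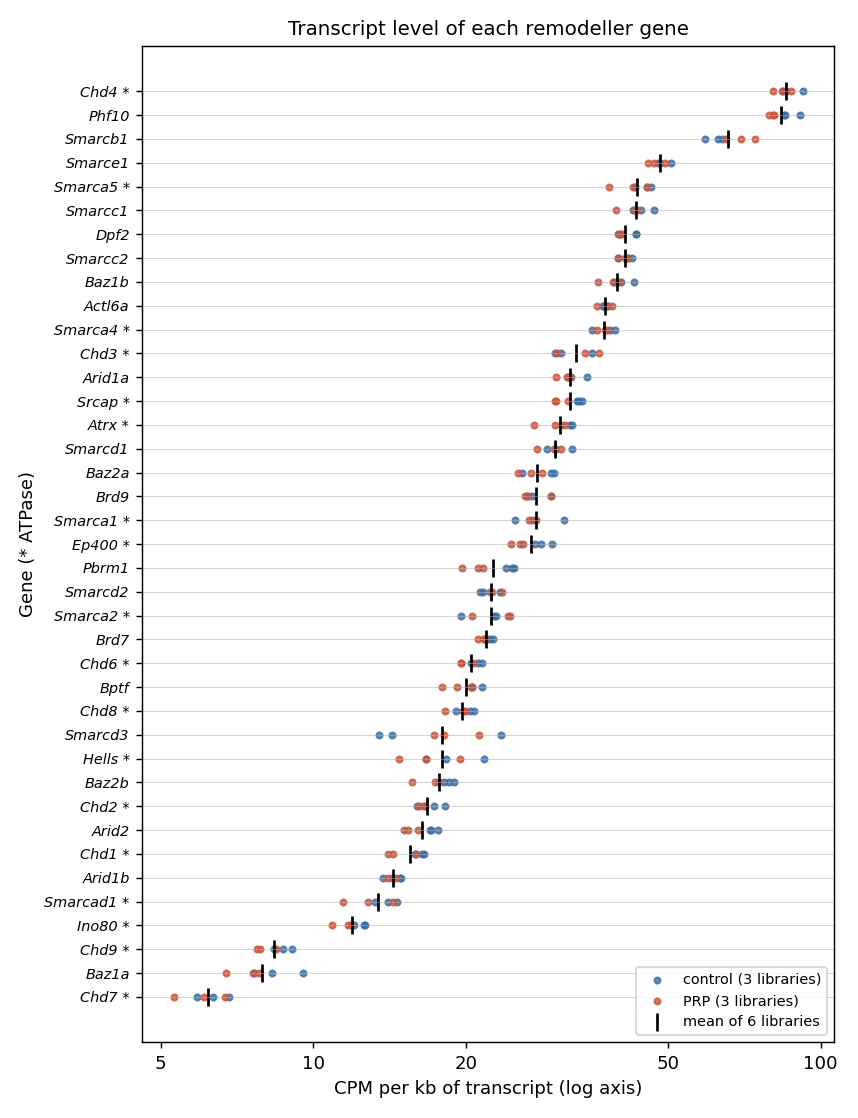
Transcript level of the 39 remodeller genes. The horizontal axis is CPM per kb of transcript on a log scale, each point is a library (blue control, red PRP), the black bar is the mean of 6 libraries, and an asterisk marks an ATPase. With the longest transcript as length, Chd4, at 85.6, and Chd7, at 6.19, mark the ends of the range, and the points of both groups overlap for most genes.

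Among the ATPases, Chd4, the motor of the NuRD complex, had the highest level, at 85.6 ± 3.86 CPM per kb (SD, n = 6 libraries). Its CPM values were 617.0, 563.8 and 573.4 in control 1 to 3 and 584.1, 540.4 and 561.3 in PRP 1 to 3, so that the groups overlapped. Chd3, the other NuRD ATPase among the members, stood at 32.9 ± 2.92 CPM per kb. Chd4 exceeded it in 6 of 6 libraries, by 2.29- to 3.07-fold, a mean log2 ratio of 1.38 that became 0.20 with the median transcript length.

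Chd7, which binds enhancers and is mutated in CHARGE syndrome, had the lowest level of all members, at 6.19 ± 0.56 CPM per kb. Its CPM values were 64.9, 69.7 and 60.3 in control and 54.2, 68.3 and 62.1 in PRP. Of its relatives, Chd9 stood at 8.37 ± 0.51, Chd8 at 19.7 ± 0.92 and Chd6 at 20.5 ± 0.80 CPM per kb, and Chd8 and Chd6 did not differ beyond their spread. Chd1 and Chd2, which travel with active transcription, stood at 15.5 ± 1.06 and 16.8 ± 0.82.

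Of the alternative SWI/SNF motors, Smarca4 had 37.5 ± 1.39 and Smarca2 22.4 ± 1.97 CPM per kb. Of the ISWI motors, Smarca5 had 43.5 ± 3.00 and Smarca1 27.4 ± 2.04. Smarca4 and Smarca5 were each the higher of their pair in 6 of 6 libraries, at mean ratios of 1.68 and 1.59. Of the INO80 family, Srcap had 32.0 ± 1.69, Ep400 26.8 ± 1.87 and Ino80 11.9 ± 0.64. Atrx, which deposits the histone variant H3.3 at repeats, had 30.6 ± 1.86 CPM per kb. Hells, a helper of DNA methylation, had 17.9 ± 2.43, and Smarcad1, which restores silent chromatin after replication, had 13.4 ± 1.19.

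Among the partner subunits, Phf10, a PBAF reader subunit, led with 83.6 ± 4.4 CPM per kb, followed by the SWI/SNF core subunits Smarcb1 at 65.8 ± 5.37 and Smarce1 at 48.1 ± 1.75. The core scaffolds Smarcc1 and Smarcc2 had 43.3 ± 2.42 and 41.1 ± 1.06 and did not differ beyond their spread, but the log2 ratio of Smarcc1 to Smarcc2 was 1.05 with the median transcript length. Of the BAF60 subunits, Smarcd1 had 29.9 ± 1.62, Smarcd2 22.4 ± 0.89 and Smarcd3 17.97 ± 3.86. Arid1a, which defines BAF, exceeded its alternative Arid1b by 2.07- to 2.36-fold and the PBAF subunit Arid2 by 1.83- to 2.12-fold in the 6 libraries. Of the ISWI partners, Baz1b exceeded Baz1a by 4.48- to 5.77-fold, at 39.6 ± 2.12 against 7.94 ± 0.94. With the median transcript length, Smarca2 lay above Smarca4 (mean log2 ratio of Smarca4 to Smarca2 -1.96), Baz1a above Baz1b (Baz1b to Baz1a -1.07) and Baz2b above Baz2a (Baz2a to Baz2b -0.25), and the log2 ratio went from 0.67 to 0.06 for Smarca5 to Smarca1 and from 0.97 to 0.26 for Arid1a to Arid2.

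The study compared PRP with medium alone to find early changes in ovarian transcripts. Most remodeller genes were slightly lower in PRP: 33 of 39 had a log2 fold change (PRP minus control) below 0, where 49.6% of all tested genes did. The median of the 39 was -0.08, and that of all tested genes was 0.00. The summed level of the 39 was 6795, 6795 and 6824 CPM in control 1 to 3. In PRP 1 to 3 it was 6332, 6543 and 6526 CPM, so that the groups did not overlap. Such a separation was not limited to the remodellers. For all tested genes with transcripts over 5 kb, the median log2 deviation from the mean of all libraries also separated the groups. It was 0.02, 0.02 and 0.06 in control 1 to 3 and -0.05, -0.02 and -0.01 in PRP 1 to 3. By replicate number, the median difference of the 39 was -0.13, -0.05 and -0.06 for numbers 1, 2 and 3. No gene of the table, members included, passed an adjusted p of 0.05 in edgeR's quasi-likelihood test without the replicate number in the model (0% of those tested).

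Of the 17475 tested genes 557 had an unadjusted p under 0.05 in edgeR, 551 in DESeq2 and 564 in limma-voom. Each count is a smaller share than the 0.05 that would fall under this threshold if no gene differed. With the replicate number as a block 0 of 39 members passed, against 0.12% of all tested genes. The members were chosen with this comparison in view, so their counts support nothing further. Without control 3, the library with high erythroid and interferon-stimulated genes, 32 of the 39 were lower.

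Markers of the cell types in the ovary moved between the groups as well, and none passed an adjusted p of 0.05 in edgeR's quasi-likelihood test. The log2 fold change was above 0 for 10 of 12 oocyte, 7 of 9 granulosa, 7 of 8 stromal fibroblast, 5 of 7 surface epithelium, 5 of 6 endothelial and 3 of 7 macrophage and leukocyte markers. The summed surface epithelium markers did not overlap, at 315 to 326 CPM in control and 332 to 383 CPM in PRP. The other sums overlapped, with oocyte markers at 1775 to 2473 and 1924 to 2803 CPM, granulosa markers at 1018 to 1146 and 1098 to 1198 CPM, and stromal markers, whose median log2 fold change was 0.19, at 4719 to 5965 and 5052 to 6306 CPM. Proliferation markers were below 0 in 7 of 8 and interferon-stimulated genes in 9 of 9, the latter at 149 to 274 CPM in control and 135 to 157 CPM in PRP. The 5 erythroid genes tested, of 7 listed, were below 0. For proliferation, interferon-stimulated and erythroid genes the highest sum was in control 3, at 1300, 274 and 1532 CPM, respectively. In control 1 and 2 the sums were 972 and 962, 189 and 149, and 108 and 144 CPM. The PRP sums were 954 to 1015, 135 to 157 and 109 to 225 CPM. The part of these markers in the lower values of the remodellers was not tested.

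**Figure D2:**
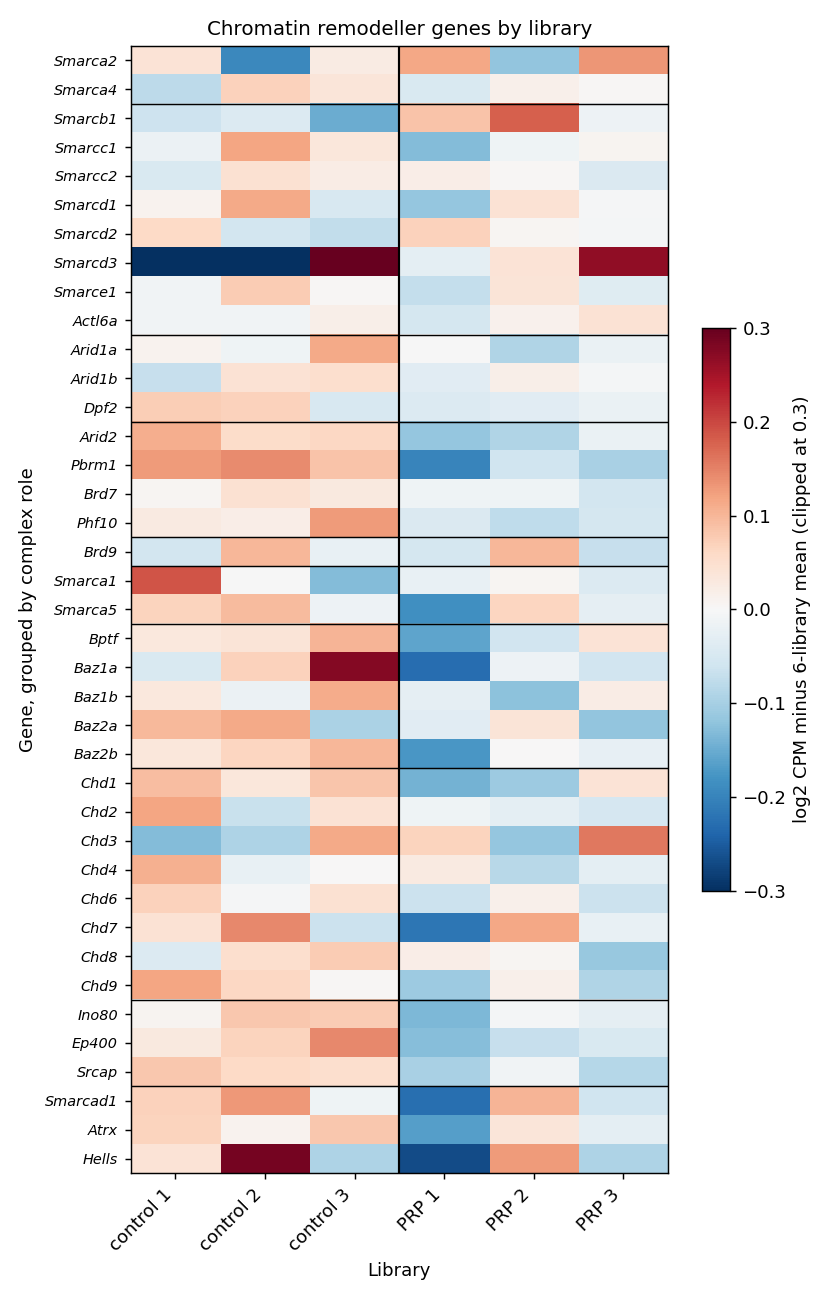
Deviation of each remodeller gene from its own mean, by library. Colour gives log2 CPM minus the mean of the 6 libraries, clipped at 0.3, columns are libraries, and horizontal lines separate the roles. In the control columns 27, 27 and 28 of the 39 genes are above their mean (warm), against 7 in PRP 1, 21 in PRP 2 and 9 in PRP 3.

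The PRP libraries did not all sit at the same depth of this pattern. PRP 1 was the lowest of the 6 libraries for 19 of the 39 genes and lay below the 6-library mean in all but 7. The members' median log2 deviation from that mean was -0.05, 0.00 and -0.03 in PRP 1 to 3. For tested genes over 5 kb it was -0.05, -0.02 and -0.01, and for all tested genes 0.00, 0.01 and 0.01. In PRP 2, 21 of the 39 genes lay above that mean. Control 2 was the highest library for 14 genes. Without PRP 1, 30 of 39 genes were lower and the median log2 fold change was -0.06, and without control 2, 29 were lower with a median of -0.05.

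In 8 members all 3 PRP libraries lay below all 3 control libraries (4.87% of all tested genes), and in 1 member, Smarcb1, all 3 lay above (4.34%). The 8 were the PBAF subunits Pbrm1, Arid2, Brd7 and Phf10, the ISWI partner Baz2b and the INO80 family ATPases Ino80, Ep400 and Srcap. They thus held each of the 4 PBAF-defining subunits and each of the 3 INO80 family motors, and none of the 8 shared SWI/SNF core subunits. The median transcript length of these sets was 5.77, 10.7 and 2.83 kb, and their median GC content 46.5%, 52.4% and 54.7%, in that order. Fold changes moved with both properties across the whole table, as described below, and their part in this split was not tested. In 21 members PRP was lower at all 3 replicate numbers (16.3% of all tested genes), and in 3 it was higher at all 3 (16.8%). Tested genes with transcripts over 5 kb and at least the lowest member's mean CPM numbered 2084. Of these, 332 had all 3 PRP libraries below the controls and 25 above, against 6 and 0 of the 27 members over 5 kb. At all 3 numbers, 879 of the 2084 were lower and 148 higher, against 18 and 1 of the 27 members.

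PBAF is the SWI/SNF form that holds Pbrm1, Arid2, Brd7 and Phf10. Of these, Pbrm1 and Brd7 carry bromodomains, which bind acetylated histones and also occur in other SWI/SNF forms. Pbrm1 (Entrez 66923, chromosome 14, 31019138 to 31121592, GRCm38), its multi-bromodomain subunit, had 194.9, 196.7 and 189.4 CPM in control 1 to 3 and 155.4, 171.1 and 166.7 CPM in PRP 1 to 3. The lowest control library lay above the highest PRP library. The control libraries averaged 193.6 ± 3.83 CPM and the PRP libraries 164.4 ± 8.07 CPM (SD, n = 3). Its log2 fold change, -0.24 ± 0.06 (SE), was the lowest of the 39. The span of Pbrm1 overlaps that of Smim4, and the sources used here do not say whether reads were counted by strand.

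Arid2 (Entrez 77044, chromosome 15, 96287522 to 96405463), the DNA-binding subunit of PBAF, had 149.9, 144.4 and 145.2 CPM in control and 128.2, 130.6 and 137.0 CPM in PRP. Its log2 fold change was -0.15 ± 0.06 (SE), and -0.07 with a correction for GC content and transcript length described below. Phf10 had 141.5, 140.7 and 151.6 CPM in control and 134.7, 131.7 and 133.7 CPM in PRP. Brd7, a bromodomain subunit, showed the smallest gap of the 4, with 79.7 to 81.9 CPM in control and 76.4 to 78.7 CPM in PRP. The spans of Phf10, Brd7, Baz2b and Srcap also overlap a neighbouring gene.

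The INO80 family motors were all lower in PRP. Ep400 (Entrez 75560, chromosome 5, 110664373 to 110770927), the motor of the TIP60 acetyltransferase complex, had 292.1, 299.7 and 316.3 CPM in control and 261.7, 272.6 and 277.2 CPM in PRP, a log2 fold change of -0.16 ± 0.06 (SE). Srcap (Entrez 100043597, chromosome 7, 127511983 to 127561219), which loads H2A.Z, had 360.2, 355.1 and 353.0 CPM in control and 318.4, 338.4 and 321.2 CPM in PRP, a log2 fold change of -0.13 ± 0.05. Ino80, the motor that gives the family its name, had a log2 fold change of -0.11 ± 0.06, with 76.3 to 80.2 CPM in control and 69.1 to 75.5 CPM in PRP.

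Smarcb1 (Entrez 20587, chromosome 10, 75896769 to 75921614), the core subunit that grips the nucleosome and is lost in rhabdoid tumours, went the other way. It had 104.3, 105.9 and 98.3 CPM in control and 115.6, 123.4 and 107.9 CPM in PRP. Every PRP library lay above the highest control library, and the log2 fold change was 0.17 ± 0.07 (SE). The other 5 members above 0 were Smarcd3 at 0.15 ± 0.21, Smarca2 at 0.09 ± 0.09, Chd3 at 0.07 ± 0.09, Smarcd2 at 0.05 ± 0.07 and Actl6a, an actin-like subunit, at 0.00 ± 0.06. The groups of these 5 overlapped.

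**Figure D3:**
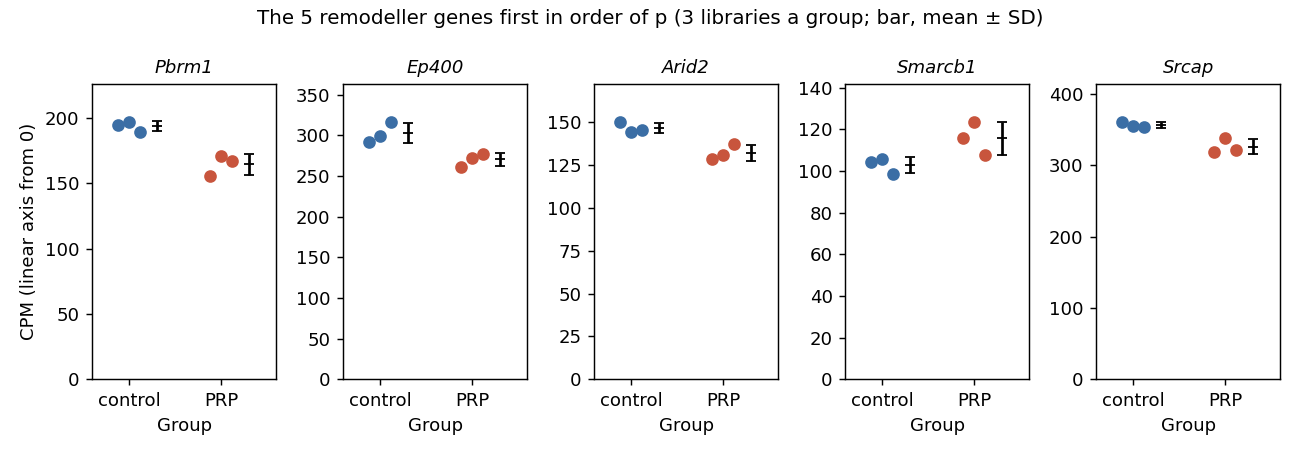
CPM by library for Pbrm1, Ep400, Arid2, Smarcb1 and Srcap. Points are the 3 libraries of a group in the order 1 to 3, on a linear axis from 0, and the bar beside them is the mean ± SD. Pbrm1 runs from 189.4 to 196.7 in control and from 155.4 to 171.1 in PRP, and Smarcb1 is the gene of the 5 that is higher in PRP.

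The shared SWI/SNF core was divided, with 4 of its 8 members lower and a median of -0.01. Smarcc1 had a log2 fold change of -0.09 ± 0.06, Smarcd1 one of -0.05 ± 0.07, Smarce1 one of -0.05 ± 0.06 and Smarcc2 one of -0.01 ± 0.06 (SE). The motor Smarca4 was at -0.02 ± 0.06. Of the BAF-defining subunits, Arid1a was at -0.07 ± 0.06, Dpf2, a reader of acylated histones, at -0.06 ± 0.06 and Arid1b at -0.02 ± 0.06. Brd9, a bromodomain subunit of non-canonical BAF, was at -0.01 ± 0.08.

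All 7 ISWI genes were below 0, with a median of -0.09. The motors Smarca5 and Smarca1 were at -0.09 ± 0.07 and -0.04 ± 0.08. Baz1a, a subunit of the ACF complex, was at -0.20 ± 0.10, Baz2b at -0.13 ± 0.07 and Bptf, the large subunit of the NURF complex, at -0.11 ± 0.07. Baz1b and Baz2a were at -0.08 ± 0.06 and -0.08 ± 0.07.

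Of the 8 CHD genes 7 were below 0, with a median of -0.07. Chd1 was at -0.14 ± 0.07, Chd9 at -0.12 ± 0.06, Chd7 at -0.08 ± 0.10 and Chd6 at -0.08 ± 0.06. Chd2 was at -0.06 ± 0.06, Chd8 at -0.06 ± 0.06 and Chd4 at -0.06 ± 0.06. The 3 remaining SNF2-like motors were all below 0, with Hells at -0.16 ± 0.12, Smarcad1 at -0.12 ± 0.09 and Atrx at -0.10 ± 0.07. In these 3 the difference was widest at replicate number 1, with a median of -0.30, against -0.03 and -0.05 at numbers 2 and 3.

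Remodeller transcripts are long, with a median of 6.38 kb against 3.02 kb for all tested genes, and fold changes moved with length across the whole table. Among all tested genes of at least the lowest member's mean CPM, the median log2 fold change was 0.10 for transcripts up to 1 kb, 0.02 between 2 and 3 kb, -0.06 between 6 and 8 kb and -0.10 above 10 kb. Of 2084 such genes over 5 kb, 77.4% were below 0 with a median of -0.07. Among the members, 25 of the 27 over 5 kb were below 0 with a median of -0.09, and 8 of the 12 up to 5 kb with a median of -0.03. GC content moved with fold change too, from a median of -0.09 below 40% GC to 0.06 above 60% GC over the tested genes of at least the same mean CPM.

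Across the 39 members the log2 fold change had a Pearson correlation of -0.54 with log10 transcript length and of 0.61 with GC content. These are descriptions across genes, which share the same 6 libraries and are not independent. In a fit corrected for GC content and length, 29 of 39 members were below 0 (50.3% of all tested genes) and their median was -0.03. Of the 8 genes whose PRP libraries lay below the controls, Phf10 then had a log2 fold change of -0.15, Pbrm1 one of -0.14, Ep400 one of -0.12, Srcap one of -0.09, Arid2 one of -0.07, Ino80 one of -0.06, Baz2b one of -0.06 and Brd7 one of -0.03. In Arid2, Baz2b, Ino80, Pbrm1 and Brd7, and in Smarcb1 at 0.10, the value shrank by over 1.5 times, while Arid1b, Smarca1, Chd2, Chd8 and Atrx crossed to just above 0 and Actl6a to just below it. How far length or GC content accounts for the rest was not tested. Phf10, with a transcript of 1.66 kb, is the shortest of the 8 genes whose PRP libraries lay below the controls.

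**Figure D4:**
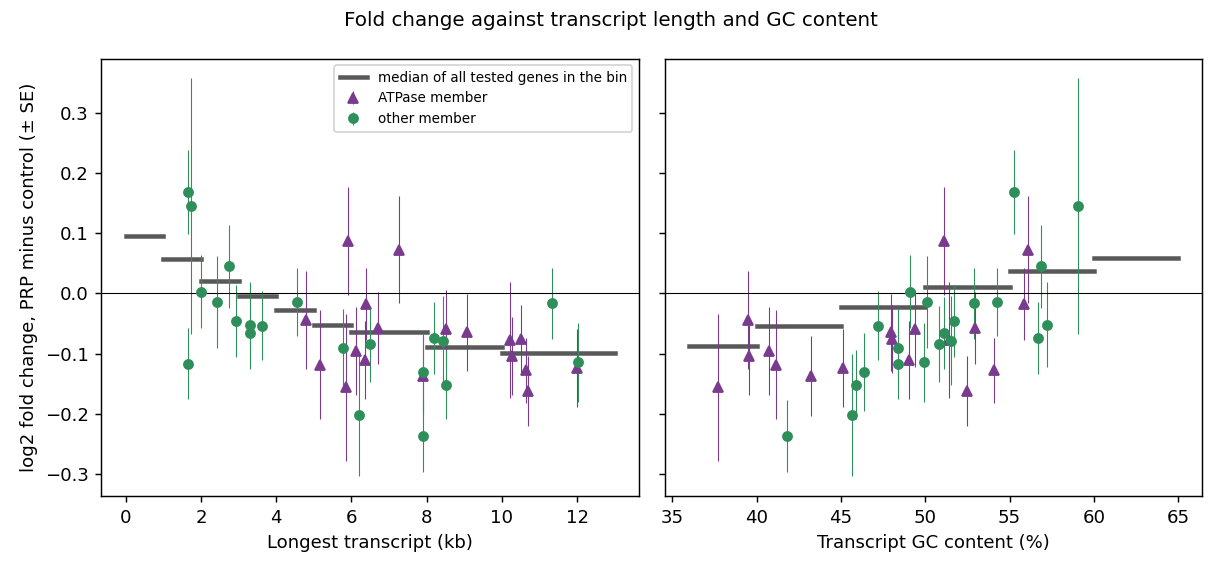
Log2 fold change of each remodeller gene against its transcript length (left) and GC content (right). Triangles are ATPases, circles are other members, error bars are ± SE, and grey bars are the median of all tested genes in each bin with at least the lowest member's mean CPM. The end bins are drawn to the edge of the plotted range. The grey bars descend from 0.10 to -0.10 with length, and Pbrm1, at -0.24, is the lowest point.

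Partner genes of these complexes and SNF2-like ATPases outside the member list, from lists drawn up by family, together had a median transcript length of 3.06 kb. Of 72 listed, 71 were tested, 34 of these were below 0 and their median log2 fold change was 0.01. None passed an adjusted p of 0.05 in edgeR's quasi-likelihood test without or with the block. Of 12 SWI/SNF partners 4 were below 0, of 17 ISWI and CHD partners 8, and of 28 partners in the INO80, SRCAP and TIP60 complexes 11. The SNF2-like ATPases outside the member list, with a median length of 4.85 kb, had 11 of 14 below 0 and a median of -0.07.

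Single partners pointed both ways. Ino80d, an INO80 subunit, had a log2 fold change of -0.21 ± 0.07 (SE), while the INO80 subunit Tfpt and the SRCAP subunit Znhit1 were at 0.24 ± 0.10 and 0.25 ± 0.11. Mta3 of NuRD was at 0.16 ± 0.07, and the ISWI partners Rsf1 and Cecr2 were at -0.13 ± 0.07 and -0.20 ± 0.11. Of the SWI/SNF partners, Dpf1 was at 0.25 ± 0.18, Bicral at -0.11 ± 0.09 and Dpf3 at 0.09 ± 0.10. Among the ATPases, Ercc6l, which works on mitotic chromosomes, was at -0.23 ± 0.09, Btaf1, which removes the TATA-binding protein from DNA, at -0.18 ± 0.07 and Rad54l2 at -0.12 ± 0.07.

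Histone lysine methyltransferases and acetyltransferases, another class of chromatin enzymes with long transcripts (median 7.32 kb), were set beside the remodellers. Of these 29 genes 25 were below 0, with a median of -0.07. With the GC and length correction 23 of 29 were below 0 and the median was -0.04. The acetyltransferases Ep300 and Kat6a were at -0.19 ± 0.06 and -0.21 ± 0.07 (SE), and the methyltransferase Setd2 at -0.14 ± 0.05. None of the 29 passed an adjusted p of 0.05 in edgeR's quasi-likelihood test in either fit.

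Variation between replicate numbers was tested separately. The numbers are balanced over the groups, but their variation is part of the spread in the PRP fit without a block. With the number as a block, 1960 genes had an unadjusted p under 0.05 in edgeR, against 557 without it. Both groups carry the numbers 1 to 3, and same-numbered libraries deviated together across the table. With the treatment kept in the model, 4 of 39 remodellers (10.3%) differed between numbers at an adjusted p of 0.05 in edgeR's quasi-likelihood test, against 12.6% of all tested genes, so that their share was near the background. The 4 were Hells, Smarcd3, Smarca2 and Chd3. No member passed without control 2, 2 passed without control 3 and 1 without PRP 2, and over all genes the count went from 2207 to 815, 1310 and 986, respectively.

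Hells (Entrez 15201, chromosome 19, 38930262 to 38970470) had 107.3, 127.2 and 97.9 CPM in control 1 to 3 and 86.6, 114.0 and 97.8 CPM in PRP 1 to 3. Number 2 was the highest in both groups (edgeR adjusted p = 0.0106). The summed proliferation markers, which include S and M phase genes, stood at 962 to 1300 CPM in control and 954 to 1015 CPM in PRP, with number 3 the highest and number 2 the lowest in both groups. Their sums at numbers 1 and 2 were 972 and 962 CPM in control and 996 and 954 CPM in PRP. The part of these markers in the values of Hells was not tested.

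Smarcd3 (Entrez 66993, chromosome 5, 24592622 to 24624456), the BAF60 subunit known from heart and muscle, had 23.4, 24.7 and 40.7 CPM in control and 30.0, 31.5 and 36.8 CPM in PRP. Number 3 was the highest in both groups, by a range between numbers of 0.54 on the log2 scale, the widest of the 39 (edgeR adjusted p = 0.0119). Its span overlaps that of Chpf2, and the spans of Smarca2 and Chd3 overlap other annotated genes.

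Smarca2 (Entrez 67155, chromosome 19, 26605073 to 26778321) had 135.8, 115.5 and 134.3 CPM in control and 143.2, 121.7 and 144.7 CPM in PRP. Number 2 was the lowest in both groups (edgeR adjusted p = 0.0209), while its alternative motor Smarca4 had its highest value in each group at that number, with 226.0, 250.4 and 244.7 CPM in control and 231.4, 241.4 and 239.5 CPM in PRP, and did not pass (edgeR adjusted p = 0.392). The ratio of Smarca4 to Smarca2 per kb accordingly ran from 1.501 to 2.01 over the 6 libraries.

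Chd3 (Entrez 216848, chromosome 11, 69343273 to 69369499) had 217.6, 223.3 and 257.7 CPM in control and 249.2, 219.7 and 265.8 CPM in PRP, with number 3 the highest in both groups (edgeR adjusted p = 0.0355). Baz2a, the next in order, did not pass (edgeR adjusted p = 0.0839), with 248.6, 251.5 and 217.8 CPM in control and 226.9, 238.8 and 214.1 CPM in PRP. The median range between numbers was 0.10 on the log2 scale for the members, against 0.26 for all tested genes. These ranges were not matched for level: the median level was 139.8 CPM for the members and 20.7 CPM for all tested genes. The replicate number took a median of 45.6% of a member's variance and the treatment 27.3%, against 55.7% and 11.3% over all tested genes. The number has more levels than the treatment and so takes a larger share of pure noise. The shares of number and treatment therefore cannot be ranked against each other. The treatment share is again a value that the choice of members had in view.

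**Figure D5:**
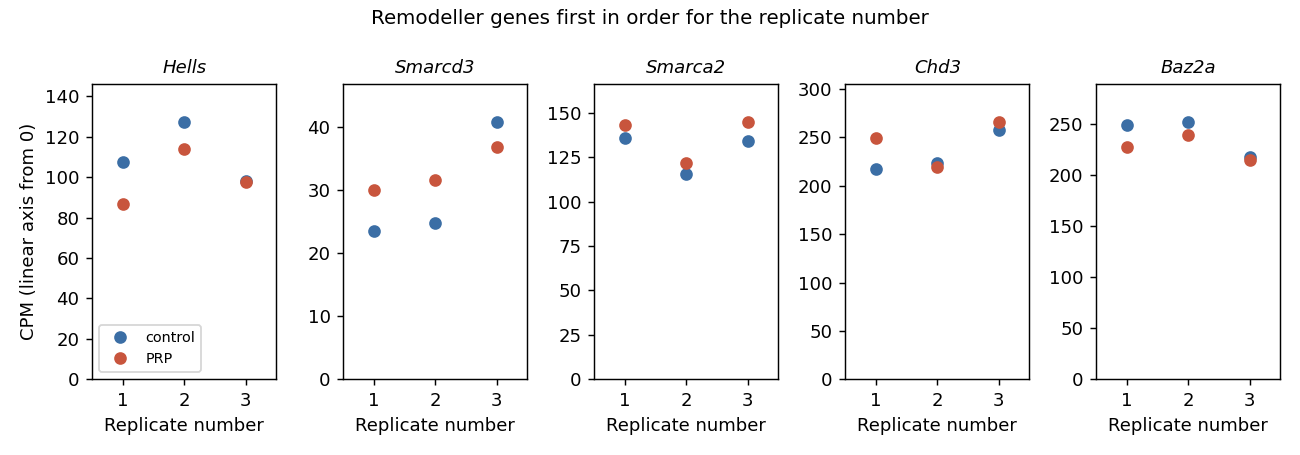
CPM by replicate number for Hells, Smarcd3, Smarca2, Chd3 and Baz2a. Blue points are control and red points PRP, 1 library each, on a linear axis from 0. In Hells number 2 and in Smarcd3 number 3 is the highest in both groups, and Smarca2 is lowest at number 2 in both.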

How the data were processed

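The authors deposited a table of raw counts per gene symbol, 6 libraries, with Entrez identifiers. The build, GRCm38 (mm10), comes from the submitters' processing notes. The aligner, counting tool and strand setting are not stated in the sources used here. Columns were matched to samples by title, and the column PPR3, whose letters are transposed, was taken as PRP 3. Counts were tested in edgeR 4.0.16 (R 4.3.3) with filterByExpr, TMM factors, robust quasi-likelihood F tests and Benjamini-Hochberg adjustment over all 17475 genes at 0.05, two-sided. Each SE is the size of the log2 fold change over the square root of F. The replicate number was tested on the same counts with treatment in the model. Alternatives used DESeq2 1.42.0, limma 3.58.1, other scaling and filters, a block, corrected GC content and length (natural splines per library), and left-out libraries. CPM values use TMM library sizes. Transcript lengths and GC content came from GENCODE M21, for 16323 tested genes, and positions from RefSeq by Entrez identifier.

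After subtracting group means, same-numbered libraries correlated at 0.49, 0.61 and 0.53 over 12401 genes and all others at -0.04 or below. The numbers thus pair the libraries in the data, but no label says so. The main PRP fit and each SE printed ignore this pairing, and the block is an alternative. The biological coefficient of variation estimated by edgeR was 18.3% without the block and 9.64% with it. Libraries differed beyond counting noise, so none was a duplicate. The procedure was tested on simulated data. The members, lists and tests were chosen with earlier results of these data known. The named genes were the 18 ATPases, the 5 members first in order of p for each comparison, the highest and lowest by level, and the 3 first of each other list. The other members were added after their values were seen.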

Additional observations from a re-analysis of the deposited data

How the results depend on the processing

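Over 20 alternatives of the PRP comparison the median log2 fold change of the remodellers stayed below 0, between -0.10 and -0.03, and the number below 0 between 29 and 34 of 39. That count was added to the alternatives after the data were seen. Leaving out 1 library gave medians of -0.09 to -0.05 and 29 to 34 genes. With the GC and length correction the median was -0.03. With the replicate block 21 genes passed over the whole table, and 13 with the block and the GC and length correction, but 0 with the block in limma-voom; leaving out replicate number 1, 2 or 3 in the blocked fit gave 3, 1 and 19 genes, respectively. No remodeller passed in any of these fits, and the block changed no other call. Of the 39 members, 29 kept the sign of their log2 fold change in every alternative, 24 below and 5 above 0. The 10 others were Smarca4, Smarcc2, Actl6a, Arid1b, Brd9, Smarca1, Chd2, Chd7, Chd8 and Atrx. For the replicate number, leaving out 1 library gave 815 to 2233 genes and 0 to 4 remodellers. The median SE of a remodeller's log2 fold change was 0.06, and the least counted remodeller held 840 counts in a library.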
